A study of Homo sapiens with 4 samples.

Results

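The zinc finger genes of chromosome 19 were examined as a family for binding of BRG1, the ATPase of the SWI/SNF chromatin remodeling complex, and of a BRG1 protein without its helicase/SANT-associated (HSA) domain. Members were the protein-coding genes on chromosome 19 of the GENCODE annotation on hg19 whose symbol is ZNF followed by a number and at most 1 letter. This rule gave 246 genes, beside 1234 other protein-coding genes of the chromosome and out of 20163 in the genome. The rule itself used names and positions only, and no measured value, although it was chosen with earlier results of these data known.

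The study carried out CUT&RUN, in which an antibody directs a nuclease to the DNA around a bound protein, in SW-13 cells, an adrenocortical carcinoma line in which neither BRG1 nor its paralog BRM is expressed. Clonal lines selected by limiting dilution carried a Sleeping Beauty transposon with a doxycycline-inducible, V5-tagged BRG1 (iBRG1) or V5-tagged BRG1 without the HSA domain (i∆HSA), and all 4 samples (2 per construct, 300000 cells each) received doxycycline for 24 h and anti-V5 antibody. The files hold 1 peak list per construct, with 24212 iBRG1 peaks and 25371 i∆HSA peaks, and no value per replicate. Differences between the lists therefore have no replicate check, construct and clone cannot be told apart, and every interval given here is a 95% interval that covers counting error only. The read depth behind the lists is unknown. Both lists hold more peaks than the paper counts as binding sites of the 2 constructs. Each peak carries a whole-number score from the authors whose scale is not stated, the iBRG1 scores running from 0 to 180 around a median of 2 and the i∆HSA scores from 1 to 875 around a median of 4.

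C2H2 zinc finger proteins are the largest class of human transcription factors, and many of their genes lie in tandem clusters on chromosome 19 that grew by duplication. Most carry a KRAB box near the N terminus, which recruits the corepressor TRIM28 (KAP1), followed by an array of fingers that reads DNA and is encoded by the last exon. The 3' exons of many of these genes are known to carry the repressive mark H3K9me3, placed through ZNF274, TRIM28 and SETDB1, whereas their promoters are usually CpG-rich and active.

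The annotation of the members showed this structure. All 246 members encoded at least 1 C2H2 finger by pattern (median 12, range 1 to 36), 98.1% of the fingers lay in the last exon, and 154 members (62.6%) matched a strict KRAB pattern. Their median gene length was 25819 bp against 13908.5 bp for the other 1234 protein-coding genes of the chromosome, and their median 3' exon was 3301 bp against 727.5 bp.

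Sequences are shown from both ends of the genes, since the comparison of promoter with 3' exon turns on them. All are hg19 (GRCh37) reference sequence, 5' to 3' on the strand of the gene, from regions under a peak of both constructs. The 4 promoter sequences are the 150 bases upstream of the outermost annotated start, with each CpG in capitals, at chr19:35168394-35168543 for ZNF302 (plus strand), chr19:36705354-36705503 for ZNF146 (plus), chr19:20748616-20748765 for ZNF737 (minus) and chr19:45004577-45004726 for ZNF180 (minus).
ZNF302 promoter: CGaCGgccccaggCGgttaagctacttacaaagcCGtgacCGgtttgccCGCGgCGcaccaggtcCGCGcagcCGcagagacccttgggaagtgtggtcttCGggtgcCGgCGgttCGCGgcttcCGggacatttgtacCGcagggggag
ZNF146 promoter: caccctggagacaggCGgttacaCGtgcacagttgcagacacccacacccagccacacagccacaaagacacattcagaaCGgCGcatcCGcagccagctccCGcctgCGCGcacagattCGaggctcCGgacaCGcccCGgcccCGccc
ZNF737 promoter: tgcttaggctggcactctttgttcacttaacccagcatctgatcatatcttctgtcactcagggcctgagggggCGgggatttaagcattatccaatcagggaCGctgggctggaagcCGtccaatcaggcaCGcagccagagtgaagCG
ZNF180 promoter: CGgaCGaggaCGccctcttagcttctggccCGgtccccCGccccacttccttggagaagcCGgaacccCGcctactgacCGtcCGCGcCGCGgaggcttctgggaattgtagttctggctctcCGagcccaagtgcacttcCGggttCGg
These windows hold 18, 13, 5 and 15 CpG, in the order shown.

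Coding sequence of the 3' exon is shown for the only members with a 3' exon peak in both lists, ZNF714 at chr19:21300158-21300337 (plus strand) and ZNF582 at chr19:56895631-56895810 (minus strand). The codons of the zinc-binding cysteines (TGT or TGC) and histidines (CAT) are in capitals, and the spacing repeats with each finger.
ZNF714 finger exon: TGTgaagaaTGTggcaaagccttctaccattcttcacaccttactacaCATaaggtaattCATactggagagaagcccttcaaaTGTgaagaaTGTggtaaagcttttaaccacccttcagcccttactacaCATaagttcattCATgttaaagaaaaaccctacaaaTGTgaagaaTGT
ZNF582 finger exon: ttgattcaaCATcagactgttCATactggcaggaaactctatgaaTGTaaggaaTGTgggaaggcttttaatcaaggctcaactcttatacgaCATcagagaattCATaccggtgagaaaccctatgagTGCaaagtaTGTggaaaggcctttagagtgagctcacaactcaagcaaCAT
The ZNF714 stretch holds 2 whole fingers and 0 CpG, and the ZNF582 stretch 1 whole finger and 2 CpG. Their GC contents were 37.8% and 41.1%, against 54.7% to 67.3% in the promoter windows.

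Peaks at zinc finger genes were more numerous in the i∆HSA list. Within the gene body or 1 kb on each side, 65 members (26.4%, interval 21.3 to 32.3%) had an iBRG1 peak and 128 (52.0%, 45.8 to 58.2%) an i∆HSA peak, and 100 members had neither. For the other chromosome 19 genes the shares were 30.8% (28.3 to 33.4%) and 47.8% (45.0 to 50.6%), and for all protein-coding genes 39.3% and 43.5%. The intervals of members and other chromosome 19 genes overlapped in both lists. ZNF-numbered genes on other chromosomes, 262 in all, had shares of 37.02% and 49.2%.

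The overlap of the lists at members was near that of other genes on the iBRG1 side and, with no interval computed, lower on the i∆HSA side. A peak of each construct lay at 47 members (19.1%, against 26.2% of all protein-coding genes), which is 72.3% of the members with an iBRG1 peak and 36.7% of those with an i∆HSA peak. These 2 shares were 71.8% and 46.3% for other chromosome 19 genes and 66.8% and 60.3% for all protein-coding genes. A further 18 members (7.32%) had an iBRG1 peak alone and 81 (32.9%) an i∆HSA peak alone, against 13.02% and 17.3% of all protein-coding genes. Members with an i∆HSA peak outnumbered those with an iBRG1 peak 1.97-fold, a ratio of 1.55 for other chromosome 19 genes, 1.33 for ZNF-numbered genes elsewhere and 1.11 for all protein-coding genes.

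The promoter was taken as the window from 1 kb before to 1 kb after the start of the representative transcript. Among gene body, promoter and 3' exon, only at the promoter did the intervals of members and other chromosome 19 genes lie apart, and only for i∆HSA. An iBRG1 peak lay at the promoter of 38 members (15.4%, 11.5 to 20.5%), against 17.8% (15.8 to 20.1%) of other chromosome 19 genes and 11.8% of all protein-coding genes. For i∆HSA the promoters of 80 members were under a peak (32.5%, 27.0 to 38.6%), against 23.4% (21.1 to 25.9%) of other chromosome 19 genes, 20.6% (16.2 to 25.9%) of ZNF-numbered genes elsewhere and 14.3% of all protein-coding genes. The i∆HSA interval of the members did not overlap that of either comparison group, whereas the iBRG1 intervals did. The i∆HSA gap was narrow, 27.0% against 25.9% at the nearest bounds. The 80 members rest on 76 peaks, and genes that share a peak make the intervals too narrow. With peak midpoints in place of overlaps the i∆HSA share of members was 28.0% (22.8 to 34.0%). No midpoint share was computed for the comparison groups. Of the members, 20 had a promoter peak in both lists (8.13%, against 4.35% of all protein-coding genes and 10.9% of other chromosome 19 genes), 18 (7.32%) in the iBRG1 list alone and 60 (24.4%) in the i∆HSA list alone, against 7.42% and 9.999% of all protein-coding genes.

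The i∆HSA excess at member promoters lay among low-scoring peaks. With peaks of a score of at least 5, the minimum that the study's methods name, 45 members (18.3%, 13.96 to 23.6%) kept an i∆HSA promoter peak against 15.3% (13.4 to 17.4%) of other chromosome 19 genes, and the intervals overlapped. With the 5000 highest-scoring peaks of each list, ties included, the shares were 6.91% and 8.27% for i∆HSA and 5.28% and 7.70% for iBRG1. The median score of the i∆HSA promoter peaks was 5 at members and 6 at other chromosome 19 genes, and that of the iBRG1 promoter peaks 3 and 4.

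**Figure D1:**
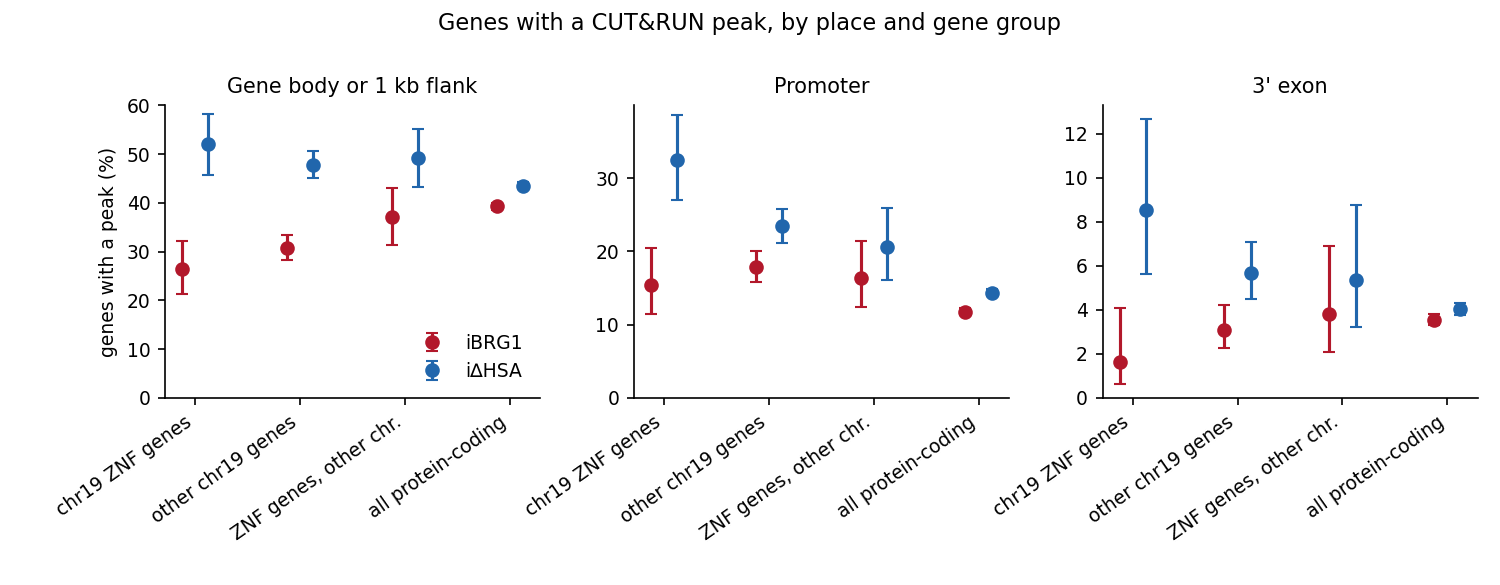
Share of genes (%, vertical axis from 0, a different scale in each panel) with an iBRG1 (red) or i∆HSA (blue) peak in the gene body or flank, at the promoter and over the 3' exon, for 4 groups of genes, with bars for the 95% Wilson interval (counting error only). At promoters the i∆HSA share of the chromosome 19 ZNF genes, 32.5%, lies above the 23.4% of the other chromosome 19 genes, while the iBRG1 shares, 15.4% and 17.8%, have overlapping intervals.

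Of the peaks at members, 36 of 77 for iBRG1 (46.8%) and 76 of 167 for i∆HSA (45.5%) lay at promoters, and within 5 kb of the start both constructs had their maximum just upstream of it. Peak coverage of members was highest at position -100 (in bp from the start) for iBRG1, where 36 members (14.6%) lay under a peak, and at position -300 for i∆HSA, with 79 members (32.1%). Beyond 4 kb from the start the share was at most 0.813% for iBRG1 and 1.63% for i∆HSA. Other chromosome 19 genes had nearly the same iBRG1 maximum (14.3% at -100), a lower i∆HSA maximum (19.4% at -400) and a higher level beyond 4 kb (2.59 to 3.81% for i∆HSA). At the first base of the 3' exon only 1 member (0.407%) was under an iBRG1 peak and 4 (1.63%) under an i∆HSA peak, so the start of the finger exon carried no maximum of the kind seen at the promoter.

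**Figure D2:**
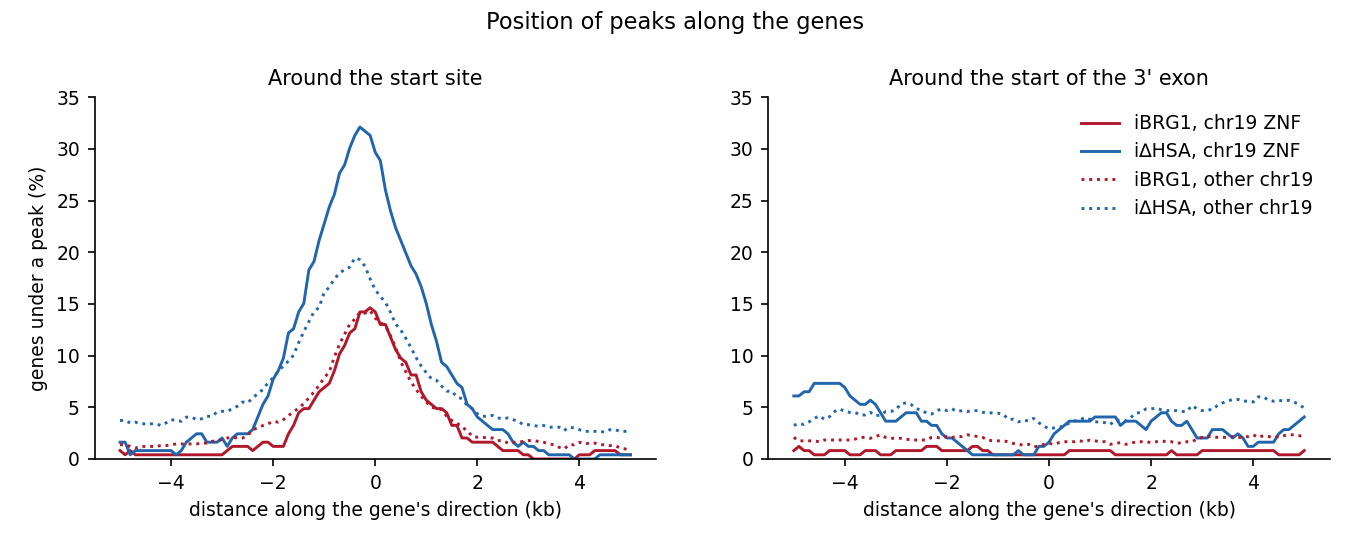
Share of genes (%) under a peak at each position within 5 kb of the start site (left) and of the first base of the 3' exon (right), for chromosome 19 ZNF genes (solid) and other chromosome 19 genes (dotted), iBRG1 in red and i∆HSA in blue. The i∆HSA curve of the ZNF genes reaches 32.1% upstream of the start, against 19.4% for other genes, and both iBRG1 curves reach about the same height (14.6% and 14.3%).

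CpG content separated the comparison further. The ratio of observed to expected CpG in the promoter window had a median of 0.765 in members and 0.718 in other chromosome 19 genes. Among CpG-rich promoters (ratio of 0.75 or more, 135 members and 566 other genes), an i∆HSA peak was found at 34.8% (27.3 to 43.2%) of members and 33.6% (29.8 to 37.6%) of other genes, with overlapping intervals. An iBRG1 peak was found at 17.04% (11.6 to 24.3%) of these members and 28.3% (24.7 to 32.1%) of these other genes, and those intervals did not overlap. Among promoters of intermediate CpG content (0.4 to 0.75), i∆HSA peaks lay at 31.3% of 99 members and 23.5% of 323 other genes. The iBRG1 shares of this class were 13.1% and 16.7%. Under 0.4 were 12 members but 345 other genes. An iBRG1 peak lay at 2 of these members (16.7%, 4.70 to 44.8%) and 1.74% (0.799 to 3.74%) of these other genes, a difference in the opposite direction with intervals that did not overlap, and an i∆HSA peak lay at 2 members (16.7%, 4.70 to 44.8%) and 6.67% (4.48 to 9.80%). With all peaks, the iBRG1 share of members was thus below that of their neighbors among CpG-rich promoters and above it, from 2 genes, among CpG-poor ones. At a score of at least 5 the iBRG1 shares of the CpG-rich class were 8.89% (5.16 to 14.9%) and 13.8% (11.2 to 16.9%), with overlapping intervals. In the CpG-poor class at that score, an iBRG1 peak lay at 0 of 12 members (0 to 24.2%). The share of other genes there was 0.870% (0.296 to 2.53%), again with overlapping intervals.

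Promoter shares of members were alike with and without a KRAB box and across gene lengths. Members with the KRAB pattern had an iBRG1 promoter peak in 14.9% and an i∆HSA promoter peak in 32.5% of cases, and the 92 members without it in 16.3% and 32.6%. When members were split into 3 classes of equal size at gene lengths of 18266 and 31301 bp, the i∆HSA promoter share was 34.1%, 32.9% and 30.5% from short to long. Other chromosome 19 genes of the same lengths had 21.6%, 27.3% and 25.3%. A further feature set member promoters apart, with no such pattern by peak: CCGGAAG, a core word of ETS family factors, occurred on either strand within 250 bp of the start in 124 members (50.4%) and 17.7% of other chromosome 19 genes. It was present in 42.1% of the members with an iBRG1 promoter peak, 47.5% of those with an i∆HSA promoter peak and 54.1% of those with neither. The YY1 word AAGATGGC occurred within the same 250 bp in 6.50% of member promoters and 7.05% of other promoters. Within the promoter peaks, it lay in 30.6% of iBRG1 peaks at members and 12.7% at other chromosome 19 genes. For i∆HSA these shares were 23.7% and 19.5%. No interval was computed for these shares, and peak width was not allowed for.

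Of the members with a promoter peak of each construct, 12 are named here, those with the highest sum of scores. The last of them, ZNF442, was tied with ZNF443 (1 for iBRG1 and 9 for i∆HSA), ZNF568 and ZNF829 (6 and 4 each). At ZNF302 the iBRG1 peak (chr19:35167936-35168838) scored 27 and the i∆HSA peak (chr19:35167421-35168959) scored 11. ZNF146, which encodes 10 fingers and matched no KRAB pattern, and ZNF565 lie head to head and shared 1 peak in each list, chr19:36705178-36707137 with a score of 23 for iBRG1 and chr19:36704795-36707375 with a score of 8 for i∆HSA. These 2 peaks serve both genes, and were counted once among peaks and once for each gene among genes. ZNF737 stood at the other end, with a score of 4 for iBRG1 and 14 for i∆HSA, at a promoter of low CpG ratio (0.380).

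The other 8 scored at most 12 in either list, where the medians over all peaks were 2 for iBRG1 and 4 for i∆HSA. ZNF444, a SCAN-domain finger protein, scored 12 for iBRG1 and 4 for i∆HSA, and ZNF180 scored 10 and 6. ZNF564 scored 7 and 4, and ZNF442 scored 7 and 3. ZNF808 was nearly even at 5 and 6. In ZNF607 (2 and 10), ZNF460 (3 and 8) and ZNF547 (1 and 10) the i∆HSA score was the higher. Since the lists have different score medians, these pairs place each gene within its list and do not measure a difference in binding.

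Promoter peaks found in 1 list alone included some of high score. ZNF57 had the highest iBRG1 score of all members, 31, for a peak of 727 bp at chr19:2900222-2900948 that overlaps its start, and no i∆HSA peak in the gene body or flank. ZNF790 had an iBRG1 promoter peak with a score of 18 at chr19:37327878-37330273, at its representative start. An i∆HSA peak scoring 9 (chr19:37338973-37342363) lay over the outermost annotated start of ZNF790. On the i∆HSA side, ZNF317 had a promoter peak scoring 22 at chr19:9249347-9252071 and ZNF554 a promoter peak scoring 20 at chr19:2817472-2819621, neither with an iBRG1 peak at the promoter. Of the 76 i∆HSA promoter peaks at members, 19 (25.0%, 16.6 to 35.8%) overlapped an iBRG1 peak, against 44.5% (38.1 to 51.2%) at other chromosome 19 genes, and those intervals did not overlap. For the 36 iBRG1 promoter peaks, 50.0% overlapped an i∆HSA peak, against 60.2% (52.6 to 67.4%). Counted by gene, 25% of the members with an i∆HSA promoter peak also had an iBRG1 promoter peak. That share was 46.7% for other chromosome 19 genes, 24.1% for ZNF-numbered genes elsewhere and 30.3% for all protein-coding genes. The low sharing of i∆HSA promoter peaks was thus not particular to members. Over the whole lists, promoters or not, 19.6% of i∆HSA and 20.5% of iBRG1 peaks overlapped a peak of the other construct. Members often share a start region: 12 of the 36 and 23 of the 76 peaks also touched the start window of another protein-coding gene.

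**Figure D3:**
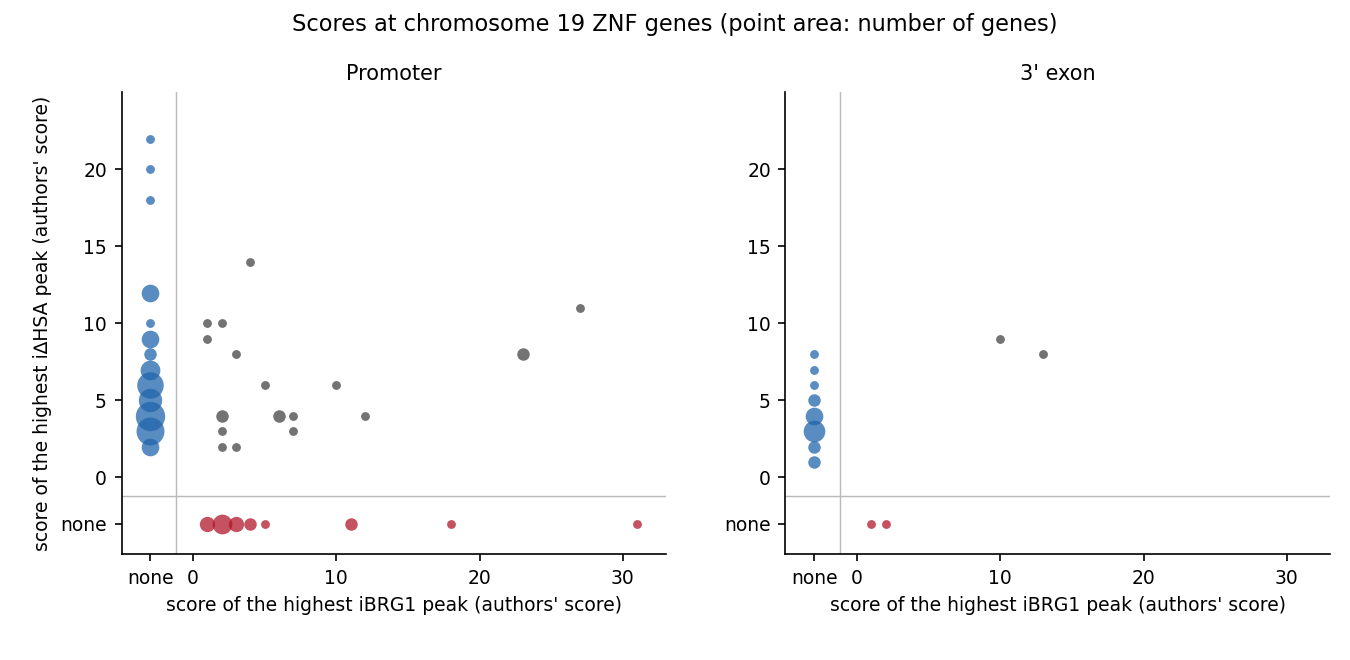
Score of the highest-scoring peak at the promoter (left) and over the 3' exon (right) of each chromosome 19 ZNF gene, iBRG1 on the horizontal and i∆HSA on the vertical axis (authors' scores, scale not stated), with genes lacking a peak in 1 list placed at "none" and point area in proportion to the number of genes. Promoter peaks of both lists occur at 20 genes (grey), of i∆HSA alone at 60 (blue) and of iBRG1 alone at 18 (red), and over 3' exons the counts are 2, 19 and 2.

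Peaks over the 3' exon were few, above all for iBRG1. An iBRG1 peak lay over the 3' exon of 4 members (1.63%, 0.634 to 4.11%), against 3.08% (2.25 to 4.20%) of other chromosome 19 genes and 3.55% of all protein-coding genes. An i∆HSA peak did so in 21 members (8.54%, 5.65 to 12.7%), against 5.67% (4.51 to 7.11%) and 4.04%. The intervals of members and other chromosome 19 genes overlapped for both constructs, although a member's 3' exon is the longer target. ZNF-numbered genes elsewhere, with a median 3' exon of 2888.5 bp, are closer in length. Their shares were 3.82% (2.09 to 6.88%) for iBRG1 and 5.34% (3.21 to 8.77%) for i∆HSA, and both intervals overlapped those of members. ZNF714 and ZNF582 had a 3' exon peak in both lists, 0.813% of members against 0.798% of all protein-coding genes.

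ZNF714 carried the highest-scoring of these iBRG1 peaks, at 13 (chr19:21298025-21300875), with an i∆HSA peak scoring 8 (chr19:21299624-21300932), and each contained 7 copies of AGAGAAACC, a word from the codons of the linker between fingers. At ZNF582 the scores were 10 and 9 (chr19:56894147-56896205 and chr19:56894191-56896358), with nearly the same edges. ZNF699 and ZNF626 were the other members with an iBRG1 peak there, scoring 2 and 1, and are named after their values were seen. The i∆HSA peaks over 3' exons numbered 20 and scored 1 to 9, with a median of 4, 10 of them over coding sequence. Their median GC content was 37.3%, against 49.1% for i∆HSA promoter peaks at members.

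Per base, the difference between promoter and 3' exon was wide. Peaks covered 10.4% of member promoter bases for iBRG1 and 0.539% of 3' exon bases, a ratio of 19.3. For i∆HSA they covered 24.4% and 2.45%, a ratio of 9.99. The ratios for other chromosome 19 genes were 7.55 and 6.19. Relative to introns, with no interval computed, iBRG1 coverage of member 3' exons (0.539%) was below that of their introns (1.08%). The i∆HSA coverage of the 3' exons (2.45%) was above that of introns (1.83%). Only 4 iBRG1 and 20 i∆HSA peaks were placed at 3' exons, too few to establish that the constructs differ in direction. In the coding part of the 3' exon, which holds the fingers, coverage was 0.597% for iBRG1 and 3.19% for i∆HSA, against 1.53% and 1.87% in other chromosome 19 genes. The values of the coding part rest on 2 iBRG1 and 10 i∆HSA peaks. At a score of at least 5, 2 members kept an iBRG1 3' exon peak and 7 an i∆HSA 3' exon peak. How uniquely reads align could move with these values: 6.90% of 50-base words in the coding part of member 3' exons and 2.89% in their promoters occurred again on chromosome 19, and the part of this in the result was not tested.

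**Figure D4:**
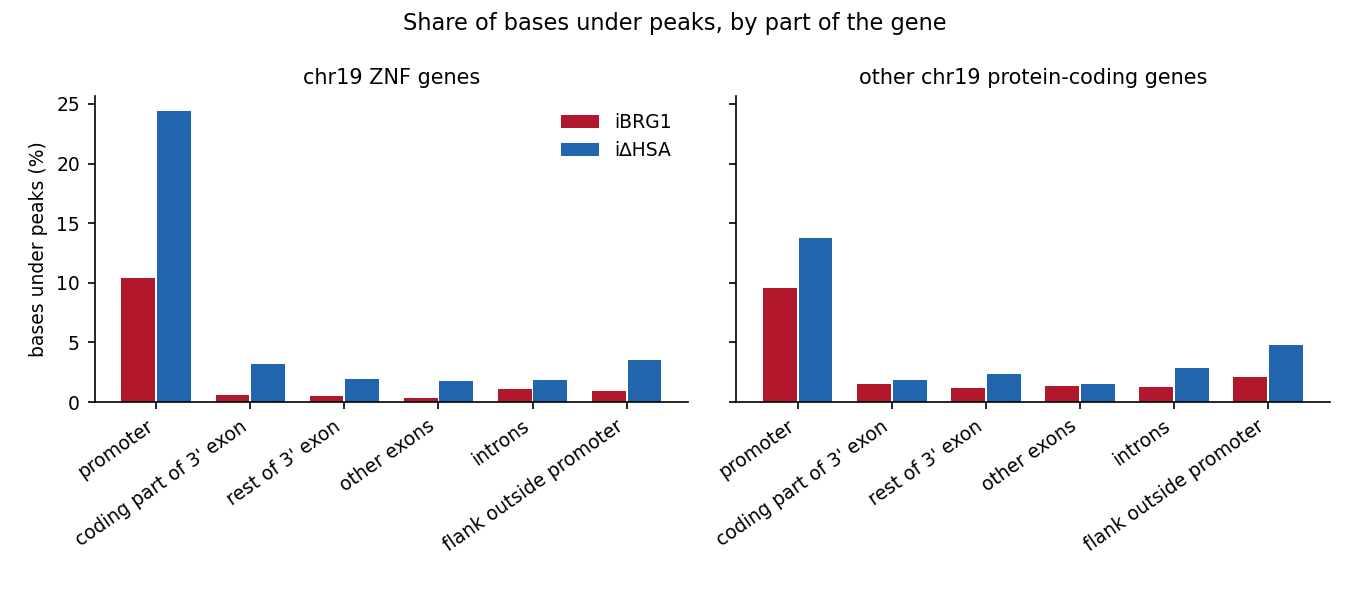
Share of bases (%) under iBRG1 (red) and i∆HSA (blue) peaks by part of the gene, for chromosome 19 ZNF genes (left) and other protein-coding genes of the chromosome (right). Promoters of the ZNF genes have 10.4% and 24.4% of their bases under peaks, and the coding part of their 3' exons 0.597% and 3.19%.

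The repeated finger linker was common in member 3' exons and present in a minority of the i∆HSA peaks there. Its codons appear as AGAGAAACC, searched on both strands, in the 3' exons of 177 members (72.0%, 1115 occurrences) and 3.08% of other chromosome 19 genes. Of the 3' exon peaks at members, 2 of 4 for iBRG1 and 7 of 20 for i∆HSA held the word.

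Outside promoters and 3' exons, iBRG1 peaks at members were rich in AP-1 words. TGACTCA or TGAGTCA, the site of JUN and FOS dimers, occurred in 21 of these 37 iBRG1 peaks (56.8%, 40.9 to 71.3%), at 0.576 per kb. It occurred in 12 of the 71 i∆HSA peaks (16.9%, 9.94 to 27.3%), at 0.190 per kb. Tiles of 1 kb over the same parts of the members held it in 15.96% of cases, at 0.174 per kb. At other chromosome 19 genes the share was 28.0% (21.7 to 35.2%) for iBRG1 and 29.4% (24.9 to 34.3%) for i∆HSA. The interval of the iBRG1 peaks at members lay above all of these, and the i∆HSA peaks at members were close to the tiles. Scores of the iBRG1 peaks outside promoters and 3' exons were low, with a median of 2. Only 4 of the 37 (10.8%) reached a score of at least 5, so the AP-1 share rests mostly on peaks under that minimum. Of the 37, 6 (16.2%) overlapped an i∆HSA peak, near the 22.6% of the same class at other chromosome 19 genes and the 20.5% of the whole list. In promoter peaks at members the order was the reverse. An AP-1 word lay in 4 of 36 for iBRG1 (11.1%) and 19 of 76 for i∆HSA (25.0%). In promoter peaks of other chromosome 19 genes the shares were 24.7% and 30.0%. Over all peaks at members they were 35.1% for iBRG1 and 22.8% for i∆HSA.

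Intronic and flanking peaks held the highest i∆HSA scores of the family. ZNF507 had a peak in both lists inside the gene, chr19:32864181-32867027 with a score of 12 for iBRG1 and chr19:32864215-32865421 with a score of 78 for i∆HSA, and the iBRG1 peak held 1 AP-1 word. ZNF331, an imprinted gene, had an i∆HSA peak scoring 40 at chr19:54061796-54063764 and no iBRG1 peak. ZNF320 and ZNF573 had i∆HSA peaks scoring 26 (chr19:53368420-53370815) and 24 (chr19:38241664-38243167) within the gene. ZNF675, known to bind TRAF6, had the highest iBRG1 score of this class, 15, at chr19:23779200-23779925.

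Members rarely held many peaks. In the iBRG1 list 51 members had 1 peak, 12 had 2, 1 had 3 and 1 had 4, and in the i∆HSA list 85 had 1, 33 had 2, 7 had 3 and 3 had 4. ZNF254 had the most iBRG1 peaks, 4, with scores of 2 to 4, and 2 i∆HSA peaks, none shared between lists. ZNF91, a repressor of SVA retrotransposons, had 2 iBRG1 peaks and 4 i∆HSA peaks, 1 of them over its 3' exon, which encodes all of its 31 fingers. ZNF565 had 1 iBRG1 peak and 4 i∆HSA peaks, and ZNF432 and ZNF675 had 2 and 3 each. ZNF254, ZNF91 and ZNF675 lie in the same cluster.

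Of the members, 232 fell into 10 clusters of at least 5 genes less than 500 kb apart, and the shares with a peak varied among them. In the cluster from ZNF575 to ZNF180 (chr19:44029649-45004576, 23 members), 2 members (8.70%, 2.42 to 26.8%) had an iBRG1 peak and 14 (60.9%, 40.8 to 77.8%) an i∆HSA peak. The cluster from ZNF175 to ZNF331 (chr19:52074536-54083523, 39 members) had 5 (12.8%) and 20 (51.3%), and that from ZNF264 to ZNF446 (chr19:57702868-58992597, 43 members) 8 (18.6%) and 22 (51.2%). In these 3 clusters the intervals of the constructs did not overlap. The same held for all members (26.4% and 52.0%) and for other chromosome 19 genes (30.8% and 47.8%), so this is not particular to these clusters. In the pericentromeric cluster from ZNF101 to ZNF254 (chr19:19779605-24312770, 37 members), by contrast, 15 members (40.5%) had an iBRG1 peak and 17 (45.9%) an i∆HSA peak.

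The cluster from ZNF565 to ZNF573 (chr19:36673178-38307940, 26 members) had the highest shares for both constructs, 14 members (53.8%) and 18 (69.2%), and its promoters were under iBRG1 peaks in 42.3% and i∆HSA peaks in 46.2% of cases. The cluster from ZNF653 to ZNF791 (25 members) had 8 members with an iBRG1 peak and 14 with an i∆HSA peak, that from ZNF414 to ZNF846 (13 members) 2 and 6, and that from ZNF628 to ZNF835 (16 members) 5 and 7. The smallest clusters, of 5 members each, had 1 member for each construct (ZNF554 to ZNF77) and 1 and 2 members (ZNF302 to ZNF792). Of the 14 members outside clusters, 4 had an iBRG1 peak and 7 an i∆HSA peak.

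**Figure D5:**
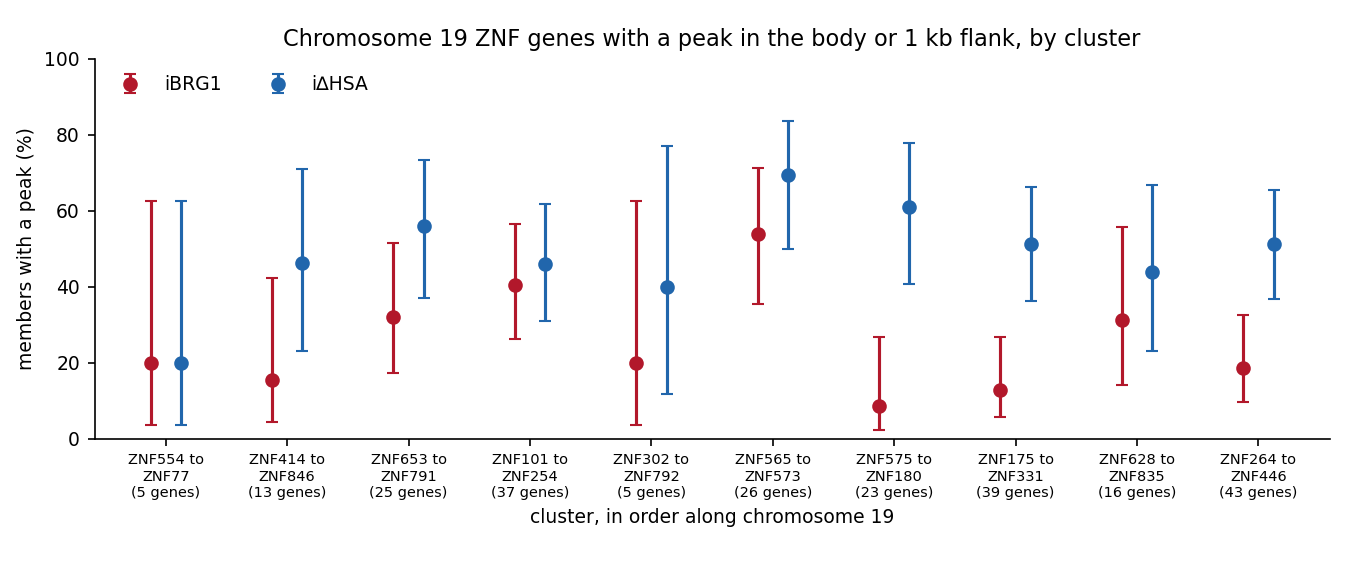
Share of members (%) with an iBRG1 (red) or i∆HSA (blue) peak in the gene body or 1 kb flank in each of the 10 clusters, ordered along chromosome 19, with 95% Wilson intervals (counting error only). The shares lie apart in the clusters ZNF575 to ZNF180 (8.70% and 60.9%), ZNF175 to ZNF331 (12.8% and 51.3%) and ZNF264 to ZNF446 (18.6% and 51.2%), and close together in ZNF101 to ZNF254 (40.5% and 45.9%).

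Chromosome 19 as a whole held more i∆HSA peaks, 1048 (4.13% of the list) against 551 iBRG1 peaks (2.28%), so the lists were also compared within the chromosome. Peaks at members made up 13.97% (11.3 to 17.1%) of the iBRG1 peaks on chromosome 19, 77 peaks, and 15.9% (13.8 to 18.3%) of the i∆HSA peaks, 167 peaks. The number of i∆HSA peaks was 2.17 times that of iBRG1 peaks at members, 1.73 times at other genes of the chromosome and 2.21 times away from protein-coding genes. Against peaks at other chromosome 19 genes, the odds ratio of i∆HSA to iBRG1 at members was 1.25 (exact interval 0.918 to 1.71), which includes 1. Relative to the chromosome's own share, a difference between the lists at zinc finger genes was thus not detectable with these numbers of peaks.

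Divided by place, the odds ratio was 1.58 (0.992 to 2.54) for promoter peaks, from 36 and 76 peaks at members and 166 and 222 at other genes, and 1.03 (0.675 to 1.60) for peaks outside promoters. With the 5000 highest-scoring peaks of each list the odds ratio fell below 1, to 0.910 (0.447 to 1.89). With all peaks, leaving out 1 cluster at a time, mostly an alternative chosen after seeing the data, kept the odds ratio above 1. The lowest value was 1.12 (0.812 to 1.56), without ZNF175 to ZNF331. The highest was 1.50 (1.05 to 2.16), without ZNF101 to ZNF254, and only this interval did not include 1. The spans of the clusters, 14.4 Mb in all, held 103 iBRG1 and 242 i∆HSA peaks, a ratio of 2.35, against 448 and 806 peaks (1.80) on the rest of the chromosome. Peaks inside the spans that touched no member numbered 31 and 85, a ratio of 2.74, so the higher i∆HSA count there was not limited to the genes themselves.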

How the data were processed

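Anti-V5 CUT&RUN was performed on 4 samples, 2 per construct. Per the study's methods and the submitters' processing notes, the authors trimmed reads with Cutadapt, aligned them with Bowtie2 to hg19, removed duplicates with Picard, used SAMtools, called peaks with MACS2 2.2 at a P-value threshold, and removed peaks of negative controls. The deposited lists, 1 per construct, give peak positions and a score per peak as the authors wrote it. The score has no stated scale, and peaks under the minimum score of 5 named in the methods are present: 27.2% of iBRG1 and 41.1% of i∆HSA peaks reach it. Whether replicates were pooled is not given in the sources used here, and depth is unknown, so that weak peaks are less certain than strong ones and no value per replicate can be given.

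Genes were taken from GENCODE release 44 mapped to GRCh37. The representative transcript was the Ensembl canonical one, else the APPRIS principal one, else that with the longest coding sequence. A peak counted at a gene, promoter (1 kb on each side of the start) or last exon when they overlapped by at least 1 bp, and peaks of both lists that overlapped by at least 1 bp were taken as shared. A peak at a member and another gene counted for the member. Fingers and KRAB boxes were found by pattern in the translated reference coding sequence. Shares have Wilson intervals and odds ratios exact conditional intervals (95%), with no test, and the code was tested on simulated data (Python 3.11.15, numpy 2.4.6, scipy 1.17.1, matplotlib 3.10.9). Genes clustered near each other can share a peak, so that intervals over genes are too narrow to the extent that they do.

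Genes named are the 12 members with a promoter peak in both lists and the highest sum of scores, the members with a 3' exon peak in both lists, the 6 with the highest-scoring peak of each list, the 5 with the most peaks, and the ends of each cluster. The members, word lists and comparisons were chosen with earlier results of these data known. Alternatives tried were a score of at least 5, the 5000 highest-scoring peaks, peak midpoints, other flanks, starts or exon parts, other comparison genes, and leaving out clusters.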

Additional observations from a re-analysis of the deposited data

How the results depend on the processing

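No paired analysis was possible because the peaks come as a single list for iBRG1 and a single list for i∆HSA, and for the same reason no replicate could be left out. Of 46 alternatives, 34 kept the value within its interval and the direction of the odds ratio, 11 moved a share beyond its interval, and 1 turned the direction. With peaks of a score of at least 5, the share of members with a peak in the body or flank moved from 26.4% to 8.54% for iBRG1 and from 52.0% to 28.05% for i∆HSA, that with a promoter peak from 15.4% to 6.10% and from 32.5% to 18.3%, and that with an i∆HSA 3' exon peak from 8.54% to 2.85%. With the 5000 highest-scoring peaks these became 7.72% and 11.4%, 5.28% and 6.91%, and 0.407%. Fewer peaks enter under both settings, which lowers every share by construction. The i∆HSA 3' exon share was 4.07% over the coding part alone, a shorter target. The odds ratio of 1.25 turned to 0.910 with the 5000 highest-scoring peaks (the cause was not tested). Leaving out 1 cluster at a time, an alternative chosen after seeing the data except for the cluster with the most members, gave odds ratios of 1.12 (without ZNF175 to ZNF331) to 1.50 (without ZNF101 to ZNF254). Depth, which is unknown, limits what a missing peak means: a gene without a peak may lie under the detection limit of that list.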
